A study of Mus musculus with 10 samples.

Results

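Primary mouse microglia and cells of the microglial line BV2 were compared at the levels they reached with lipopolysaccharide (LPS), a component of the bacterial cell wall. The members were chosen from the sample titles alone: 3 libraries of primary microglia and 2 of BV2 cells with LPS, that is 5 of the 10 libraries of the series. The other 5 libraries, without LPS, served as the reference for how the cells differed before stimulation. Of 24411 genes in the count tables, 11626 passed the low-count filter and were tested.

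Both cell types, with and without LPS, carried 10 uM EPZ-6438, an inhibitor of EZH2, the enzyme that methylates histone H3 at lysine 27. LPS was given at 10 ng/ml and cells were collected at 4 h. Primary microglia came from 3-day-old ICR pups, with the brains of 12 mice pooled, and were shaken off mixed glial cultures after 2 weeks; over 92% were CD11b-positive by flow cytometry, per the labels' protocols. The BV2 line was derived from mouse microglia. The primary cultures were grown in DMEM/F-12 with 20% fetal bovine serum and the line in high-glucose DMEM with 10%, so cell source, mouse strain, medium and serum moved together and cannot be told apart here. Since each library analysed here carried the inhibitor, its effect cannot be read from any value below. Whether replicates were grown as separate cultures is not stated, and p-values therefore cover the spread among these libraries only, which may be technical.

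LPS is sensed by Toll-like receptor 4 with its partners CD14 and MD-2 (gene Ly96). From the cell surface the receptor acts through MyD88 on NF-kB and MAP kinases, which turn on cytokine and chemokine genes, and after uptake it acts through TRIF on IRF3, which turns on interferon beta. Secreted interferon then acts back on the cells through its receptor and STAT factors, which turn on antiviral genes whose promoters carry the interferon-stimulated response element. BV2 cells were immortalised with the v-raf and v-myc oncogenes and divide continuously, while primary microglia divide little unless given growth factors.

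The libraries with LPS held 2.77 M to 3.68 M gene counts (M, 1e6). Levels are in CPM, counts scaled to a library total of 1e6, and a count of 0 in a library allowed up to 3 counts, or 0.843 to 1.17 CPM. Among the primary libraries, replicate 1 stood apart: its log2 levels correlated across genes at 0.959 and 0.962 with the other replicates, which correlated at 0.979 with each other. The precursor of ribosomal RNA, Rn45s, took 43.7% of gene counts in that library, 15.7% and 16.0% in the other primary libraries and 27.2% to 28.6% in BV2. The BV2 replicates correlated at 0.984, and libraries of different cell types at 0.536 to 0.565. These are correlations over genes, which are not independent of each other. Levels also moved with transcript length: per doubling of length the log2 level changed by 0.33, 0.12 and 0.16 in the primary libraries and by -0.35 and -0.36 in BV2. The part of this trend in the differences between the cells was tested only by removing it, and where a named gene's call or direction then turned, that is given beside its value.

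Most tested genes differed between the cells with LPS. Differences are given as log2 of primary over BV2 ± SE, and a gene was called at a Benjamini-Hochberg adjusted p under 0.05 by edgeR's quasi-likelihood test. In all, 8576 genes (73.8%) were called, of which 5012 (43.1%) were higher in primary microglia and 3564 (30.7%) were higher in BV2 cells. At least 2-fold differences were called for 3963 genes higher in primary cells (34.1%) and 2459 higher in BV2 (21.2%), and the median over all tested genes was 0.29. Removing the trend with transcript length, an alternative chosen after seeing the data, turned this split: 58.4% of the calls were higher in primary cells in the main test and 41.6% (3603 against 5051) without the trend, with a median shift of -0.43. Genes higher in primary cells had a median transcript length of 3878 bases and those higher in BV2 2448.5 bases. Of the tested genes, 1197 had no count in either BV2 library while primary cells were above the floor, and 26 had none in the primary libraries while BV2 was above it. Because nearly 3 in 4 genes were called, the counts of the gene groups below are read against these shares.

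**Figure D1:**
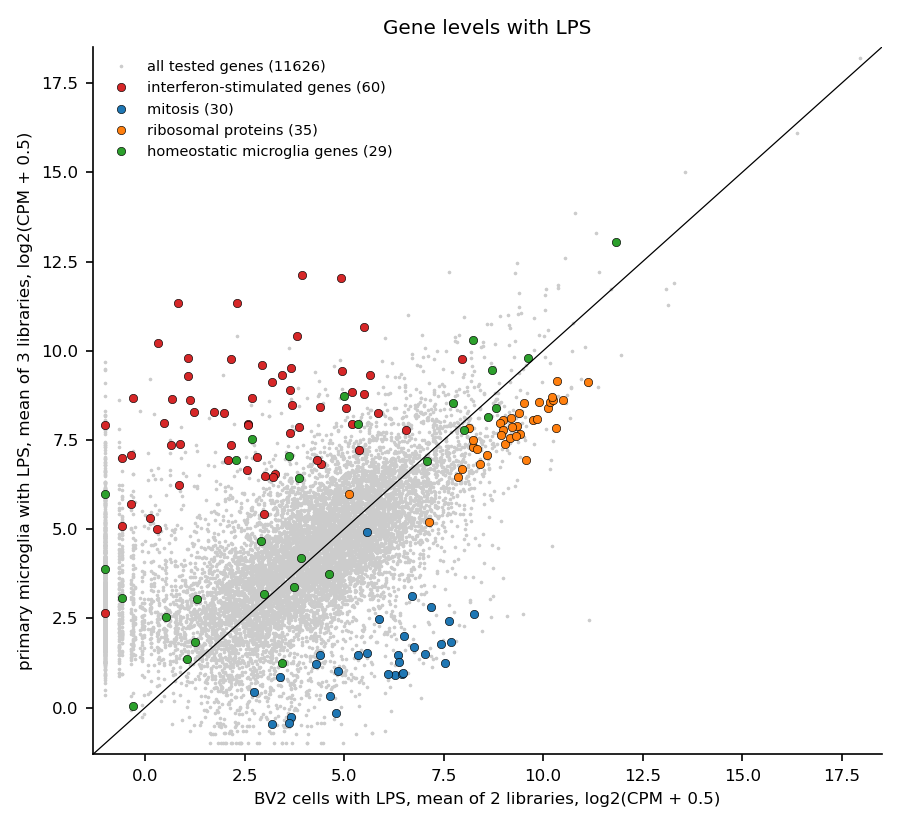
Mean level of each tested gene in BV2 cells with LPS (horizontal, 2 libraries) against primary microglia with LPS (vertical, 3 libraries), as log2(CPM + 0.5); the line marks equal levels. The 60 interferon-stimulated genes lie above the line, the 30 mitosis genes below it, 34 of the 35 ribosomal protein genes below it, and the 29 homeostatic microglia genes on both sides.

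Among genes with a mean of at least 20 CPM in the higher group, the largest differences toward primary microglia were those of guanylate-binding genes and of genes at or near 0 counts in BV2 cells. Ch25h, whose enzyme makes an antiviral oxysterol from cholesterol (chromosome 19, 34473783 to 34475148), was at 723, 842 and 918 CPM in the 3 primary libraries and 0 in both BV2 libraries, at least 1810-fold higher. Ifi202b, an interferon-inducible DNA-binding gene, was at 652, 621 and 832 CPM against 0 and 0, at least 1530-fold higher. Gbp9 had 1 count over both BV2 libraries and 409, 344 and 417 CPM in primary cells, a ratio of 2550 (95% counting interval 458 to 101000). The signalling regulator Rgs16 (ratio 1160, 207 to 45700) and the kinase gene Dclk1 (ratio 835, 150 to 33000) were also at 1 count over the BV2 libraries. Gfap, the intermediate filament of astrocytes, was at 478, 1040 and 648 CPM against 0 and 0, at least 1580-fold higher, and is taken up with the markers of other cell types below. AW112010, a transcript induced by LPS in many macrophages, was at least 932-fold higher, and Rprl3, a small structural RNA, at least 1200-fold. Of the 15 genes with the largest differences toward primary cells, 6 were on the list of interferon-stimulated genes or the CXC chemokines: Gbp5, Slfn5, Ifit3b, Iigp1, Cxcl11 and Cxcl1.

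Toward BV2, the most abundant of the 15 genes with the largest differences was Ctsk, cathepsin K, the collagen-degrading protease of osteoclasts (chromosome 3, 95499210 to 95509387). Its level was 3.13, 6.36 and 5.37 CPM in primary cells and 2120 and 2440 CPM in BV2, a log2 difference of -8.80 ± 0.18 (adjusted p = 1.24e-23). D17H6S56E-5 was at 5.86, 5.09 and 6.22 CPM against 727 and 707 CPM (-6.96 ± 0.17). Spink5, a protease inhibitor gene, had no count in primary cells and 28.8 and 32.9 CPM in BV2, at least 95-fold higher in BV2. Tcam1 (ratio 594, 106 to 23500), the carbonic anhydrase gene Car12 (480, 85.6 to 19000), the secreted phospholipase gene Pla2g5 (474, 84.5 to 18800), the calcium channel gene Cacna1f (354, 63 to 14000) and the aspartic protease gene Napsa (212, 58.3 to 1760) had 1 or 2 counts over the primary libraries; the ratios are of BV2 over primary means with 95% counting intervals, and those of Tcam1, Car12 and Pla2g5 were above the fold of Ctsk (447). The histone genes Hist1h4f, Hist1h3g and Hist1h2ag, transcribed while DNA is copied, were also among the 15, with log2 differences of -6.60 ± 0.20, -7.26 ± 0.29 and -7.23 ± 0.34. Histone genes of a cluster are near-identical, so their separate counts are uncertain.

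**Figure D2:**
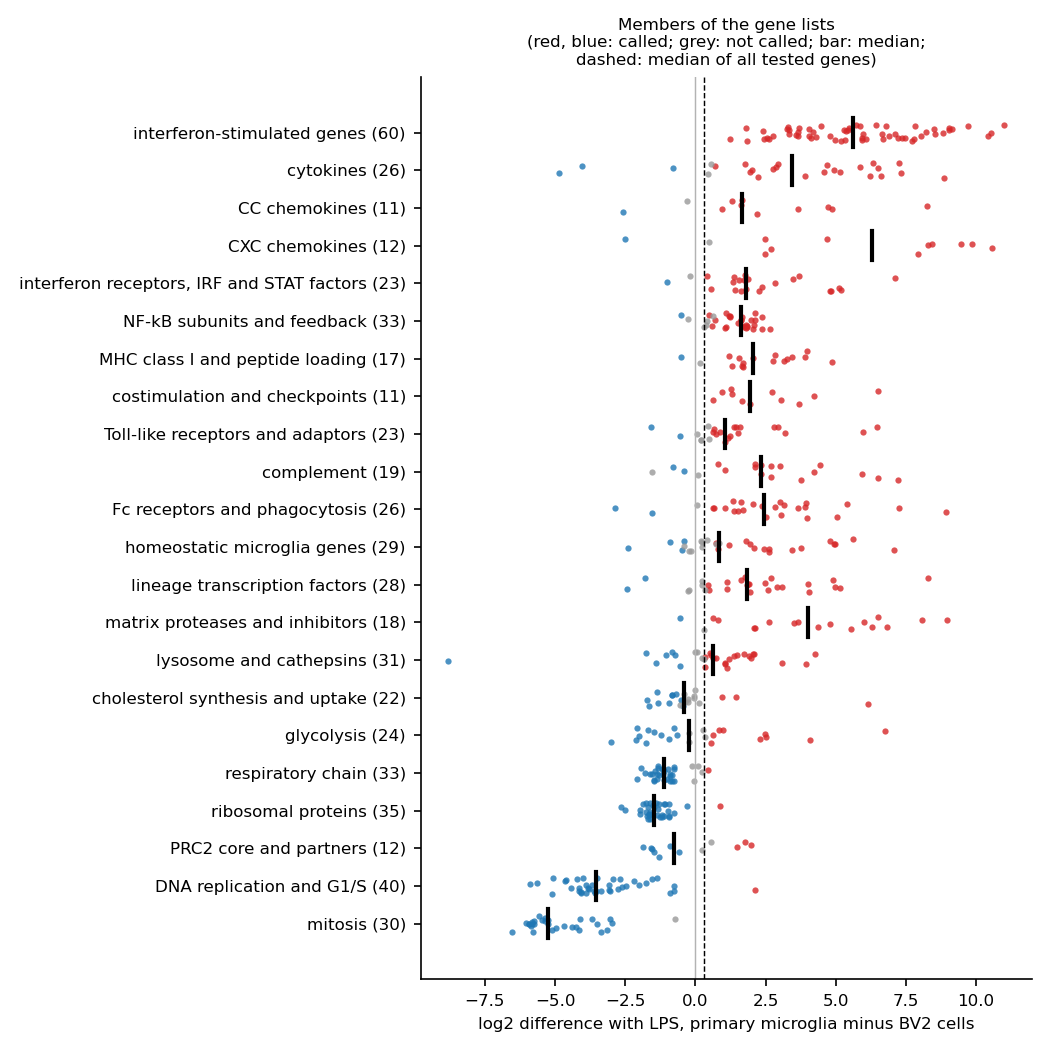
Log2 difference with LPS of each tested member of 22 gene lists, primary microglia minus BV2 cells; each point is a gene, red where called higher in primary cells, blue where called higher in BV2 and grey where not called, bars are medians and the dashed line is the median of all tested genes (0.29). A gene with no count in a group is drawn at its bound, and one with 1 to 3 counts at its ratio of means; medians run from -5.25 for mitosis to 6.29 for CXC chemokines.

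Interferon-stimulated genes encode antiviral and antibacterial effectors: RNA sensors, enzymes that block translation or deplete nucleotides, and GTPases that attack vacuoles. Of the 60 genes on this list, 60 were tested, 60 were called higher in primary microglia and 0 in BV2 cells, with a median log2 difference of 5.80 (5.60 with genes of 0 to 3 counts at their bound or ratio), against 0.29 for all tested genes. Each of the 60 differed by at least 2-fold, from Bst2, the virion tether tetherin, at 1.22 to Gbp5 at 11. The 60 calls were also made with the length trend removed (median 5.49) and with scaling by total gene counts (5.57). The split of reads within the Gbp, Irgm, Slfn, Oas and Ifit families is uncertain, since their members resemble each other closely.

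Rsad2, viperin, an enzyme that makes a chain-terminating nucleotide (chromosome 12, 26442743 to 26456452), was at 4510, 3670 and 4410 CPM in primary cells and 25.4 and 34.6 CPM in BV2 (log2 difference 7.12 ± 0.19, adjusted p = 1.51e-21). Its neighbour Cmpk2, a mitochondrial nucleotide kinase (chromosome 12, 26469117 to 26479837), was at 4080, 4380 and 4910 CPM against 15.4 and 14.3 CPM (8.23 ± 0.21, adjusted p = 5.05e-22). Gbp5, a guanylate-binding GTPase that promotes inflammasome assembly (chromosome 3, 142496934 to 142522344), was at 2490, 2570 and 2730 CPM against 2.01 and 0.562 CPM (11 ± 0.28, adjusted p = 9.52e-20). For each of these genes the 3 primary libraries lay close together and more than 100-fold above both BV2 libraries. With few counts in BV2, the difference of Gbp5 was 12.06 without BV2 replicate 1 and 10.30 without BV2 replicate 2.

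Isg15, a ubiquitin-like modifier (chromosome 4, 156199424 to 156200818), was at 701, 749 and 739 CPM against 11 and 13.5 CPM (log2 difference 5.88 ± 0.21, adjusted p = 2.61e-18). Ifit1, which binds viral RNA caps, was at 1390, 1240 and 1460 CPM against 12.1 and 14.9 CPM (6.65 ± 0.19, adjusted p = 4.36e-21), and Mx1, a dynamin-like antiviral GTPase, at 997, 821 and 867 CPM against 1.00 and 2.25 CPM (9.02 ± 0.31, adjusted p = 2.54e-15; 9.73 without BV2 replicate 2). RefSeq on GRCm38.p6 enters Mx1 as a transcribed pseudogene, and whether its RNA encodes a working protein in these cells was not tested. Oas1a, a sensor of double-stranded RNA, differed less: 118, 116 and 107 CPM against 22.4 and 19.1 CPM (2.45 ± 0.17, adjusted p = 1.00e-12). Slfn5 was at 1220, 1060 and 1260 CPM against 0.67 and 0.843 CPM (10.52 ± 0.26) and Iigp1, an immunity-related GTPase, at 125, 113 and 140 CPM against 0.335 and 0 CPM (ratio 829, 148 to 32800). In BV2 cells with LPS, Isg15, Ifit1, Rsad2 and Oas1a were thus at 11 CPM or more in both libraries, while Gbp5, Mx1, Slfn5 and Iigp1 were at 2.25 CPM or less.

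The promoters of 5 genes of the interferon group are shown because they carry the response element that the list is named for. Sequences are from RefSeq on GRCm38.p6, the assembly behind mm10, given 5′ to 3′ on the strand of the gene and ending at or before the annotated start; capitals mark matches to the core of the interferon-stimulated response element, GAAA, any 2 bases and GAAA again, on either strand (it reads TTTC, 2 bases, TTTC where the match is on the other strand). The windows are chr3:142496709-142496858 on the plus strand for Gbp5, chr19:34640739-34640888 on the plus strand for Ifit1, chr4:156200819-156200968 on the minus strand for Isg15, chr12:26456453-26456602 on the minus strand for Rsad2 and chr5:92349013-92349139 on the minus strand for Cxcl10. They were chosen after the values and matches were seen.
Gbp5: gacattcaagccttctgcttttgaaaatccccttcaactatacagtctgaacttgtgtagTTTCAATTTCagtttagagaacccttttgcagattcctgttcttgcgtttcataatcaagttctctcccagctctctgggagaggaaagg
Ifit1: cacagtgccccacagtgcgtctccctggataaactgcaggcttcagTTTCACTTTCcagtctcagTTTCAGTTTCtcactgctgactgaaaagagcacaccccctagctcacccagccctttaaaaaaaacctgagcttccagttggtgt
Isg15: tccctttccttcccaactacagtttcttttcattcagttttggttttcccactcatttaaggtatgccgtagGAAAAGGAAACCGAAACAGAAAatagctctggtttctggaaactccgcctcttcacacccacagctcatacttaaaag
Rsad2: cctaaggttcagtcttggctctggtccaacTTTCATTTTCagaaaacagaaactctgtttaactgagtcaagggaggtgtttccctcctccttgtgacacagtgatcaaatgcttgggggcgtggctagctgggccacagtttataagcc
Cxcl10: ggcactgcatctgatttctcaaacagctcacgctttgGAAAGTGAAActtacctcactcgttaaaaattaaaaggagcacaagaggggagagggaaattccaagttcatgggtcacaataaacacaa
Ifit1 held 2 separate matches, at 104 to 95 and at 85 to 76 bases before its start, and Isg15 held 3 overlapping ones between 78 and 57 bases before its start. Among the 60 interferon-stimulated genes, 47 matched an entry of the promoter table, and 24 of those (51.1%) held the core within 250 bases before a start. Among all tested genes with an entry the share was 3.43% (319 of 9304), among those called higher in primary cells 4.12% and among those called higher in BV2 3.34%; over all 32851 windows of the table it was 2.98%. No match says only that these letters are not in that window, and a match is not a measured binding site.

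Interferon beta itself was low. Ifnb1 (chromosome 4, 88522025 to 88522794) was at 10.9, 12.1 and 11.3 CPM in primary microglia and at 0.335 and 0 CPM in BV2, a ratio of 75.1 (95% counting interval 13.2 to 2990). The 3 primary libraries agreed closely and the BV2 group held 1 count. Of 25 receptors, kinases, IRF and STAT factors and SOCS feedback inhibitors, 23 were tested, 21 were called higher in primary cells and 1 in BV2, with a median of 1.79. Irf7, the factor that amplifies interferon transcription, was at 459, 536 and 508 CPM against 14.1 and 13.5 CPM (log2 difference 5.18 ± 0.19, adjusted p = 1.17e-18). Jak2, a receptor-bound kinase, also differed (719, 752 and 817 against 22.1 and 30.6 CPM; 4.84 ± 0.18), and Irf1 less (732, 829 and 837 against 85.4 and 59.9 CPM; 3.47 ± 0.16). Socs1, which inhibits the kinases, was the most different of the group (80.1, 96.1 and 95.3 against 1.00 and 0.281 CPM; 7.12 ± 0.37), at 8.13 without BV2 replicate 1 and 6.43 without BV2 replicate 2. The member called higher in BV2 was Stat6, which carries interleukin-4 signals (61.7, 58.6 and 56.3 against 131 and 106 CPM; -1.01 ± 0.15, adjusted p = 6.53e-07).

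Of 28 cytokine genes, 26 were tested: 21 were called higher in primary microglia, 3 in BV2 cells and 2 not called, with a median log2 difference of 3.43. Interleukin-1 beta, Il1b (chromosome 2, 129364569 to 129371164), was at 4310, 4630 and 4940 CPM in primary cells and 601 and 659 CPM in BV2 (2.88 ± 0.13, adjusted p = 1.15e-16). Il1a was at 4650, 4290 and 5300 CPM against 181 and 215 CPM (4.58 ± 0.16, adjusted p = 2.86e-19). Tumour necrosis factor, Tnf (chromosome 17, 35199367 to 35202007), was at 2960, 3180 and 3310 CPM against 706 and 627 CPM (2.24 ± 0.14, adjusted p = 4.79e-14). These cytokines were thus abundant in both cell types.

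Il6 (chromosome 5, 30013114 to 30019975) was at 638, 640 and 772 CPM in primary cells and 15.1 and 22.8 CPM in BV2 (log2 difference 5.16 ± 0.20, adjusted p = 5.18e-17). Il12b, the subunit shared by interleukins 12 and 23, was at 301, 303 and 293 CPM against 1.34 and 0 CPM (8.84 ± 0.33, adjusted p = 1.47e-15), the largest cytokine difference toward primary cells (12.81 without BV2 replicate 1, where no count was left, and 7.75 without BV2 replicate 2). Csf2, the growth factor GM-CSF, was low in both (11.7, 15 and 9.61 against 0.67 and 0.843 CPM; 3.91 ± 0.50, adjusted p = 1.59e-07). Il10, an anti-inflammatory cytokine, did not pass the filter: 8 counts over the primary libraries and 1 over the BV2 libraries.

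The 3 cytokine genes higher in BV2 were Csf3, Il16 and Osm. Csf3, which encodes granulocyte colony-stimulating factor (chromosome 11, 98700183 to 98703631), was at 3.91, 6.36 and 4.52 CPM in primary cells and 85.7 and 79.0 CPM in BV2 (log2 difference -4.04 ± 0.24, adjusted p = 2.94e-14). In BV2 cells without LPS it had no count in either library, so its level with LPS lay above that without it. Il16, a chemoattractant for CD4-positive cells, was at 1.17, 0.318 and 0.566 CPM against 22.4 and 18.3 CPM (-4.87 ± 0.39, adjusted p = 1.10e-11), and at 21.5 and 22.1 CPM in BV2 without LPS. Both genes differed in the direction opposite to most of the list.

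Chemokines draw leukocytes along gradients; CC members act mainly on monocytes and T cells, CXC members with an ELR motif on neutrophils and the interferon-inducible CXC members on T cells. Of 11 tested CC genes (15 listed), 9 were called higher in primary microglia and 1 in BV2 cells, with a median log2 difference of 1.66. Ccl5 (chromosome 11, 83525778 to 83530518) stood apart in the group at 1370, 1360 and 1360 CPM against 4.35 and 4.50 CPM (8.26 ± 0.19, adjusted p = 1.41e-22). Ccl3, also abundant in BV2, was at 3150, 3310 and 3680 CPM against 985 and 1150 CPM (1.66 ± 0.14, adjusted p = 4.76e-11), and Ccl4 at 1900, 2190 and 2280 CPM against 658 and 724 CPM (1.62 ± 0.13, adjusted p = 6.84e-12). The Ccl3 and Ccl4 gene models overlap on chromosome 11 in RefSeq (83647843 to 83649378 and 83648624 to 83664683), so reads in the overlap are uncertain. Ccl2, the main monocyte attractant, differed least of the called members (742, 773 and 894 against 333 and 494 CPM; 0.96 ± 0.15, adjusted p = 2.46e-06). Ccl25 was the member higher in BV2, at low levels (1.17, 1.59 and 1.13 against 8.04 and 7.87 CPM; -2.57 ± 0.41).

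Of 12 tested CXC genes (14 listed), 10 were called higher in primary cells and 1 in BV2, with a median of 7.82 (6.29 with genes of 0 to 3 counts at their bound or ratio). Cxcl1 and Cxcl2, neighbouring genes on chromosome 5 (90891245 to 90893121 and 90903899 to 90905938) that both attract neutrophils through CXCR2, differed unequally. Cxcl1 was at 566, 573 and 652 CPM in primary cells and 0.335 and 0.843 CPM in BV2 (9.84 ± 0.27, adjusted p = 9.03e-21; 10.62 without BV2 replicate 2). Cxcl2 was at 1140, 1250 and 1300 CPM against 206 and 237 CPM (2.47 ± 0.13, adjusted p = 5.38e-15). BV2 cells with LPS thus held Cxcl2 above 200 CPM and Cxcl1 below 1 CPM, while primary cells held both; the difference between the genes itself was not tested.

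Among the interferon-inducible members, Cxcl10 (chromosome 5, 92346638 to 92348889) was at 674, 412 and 446 CPM against 86.0 and 96.4 CPM (log2 difference 2.48 ± 0.20, adjusted p = 4.93e-08). Its near neighbours Cxcl9, at 77, 78.9 and 121 CPM against 0.335 and 0.281 CPM (ratio 310, 85.5 to 2560), and Cxcl11, at 185, 219 and 271 CPM against 0 and 0.281 CPM (ratio 1500, 269 to 59300), were almost not counted in BV2. RefSeq on GRCm38.p6 enters Cxcl11 as a transcribed pseudogene, and whether its RNA encodes a working chemokine in these cells was not tested. Cxcl16, a membrane-bound scavenger chemokine, was at 295, 342 and 323 CPM against 0 and 0.843 CPM (ratio 702, 240 to 3410). Pf4, platelet factor 4, was the CXC gene higher in BV2 (7.03, 10.2 and 12.4 against 55.2 and 59.9 CPM; -2.51 ± 0.20, adjusted p = 8.05e-12). Of 15 chemokine receptor genes in the files, 6 were tested and 5 were higher in primary cells, among them Cxcr4 at 14.5, 15.6 and 17.8 against 2.34 and 1.40 CPM (3.10 ± 0.30).

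The windows before the starts of Cxcl1, Cxcl2 and Il6 are shown because these genes are classic NF-kB targets and differed by very different amounts. Capitals mark matches to cores of NF-kB sites, GGGAA or GGGAC followed by any 3 bases and CC, on either strand. All are on the plus strand of GRCm38.p6, at chr5:90891095-90891244 for Cxcl1, chr5:90903749-90903898 for Cxcl2 and chr5:30012964-30013113 for Il6.
Cxcl1: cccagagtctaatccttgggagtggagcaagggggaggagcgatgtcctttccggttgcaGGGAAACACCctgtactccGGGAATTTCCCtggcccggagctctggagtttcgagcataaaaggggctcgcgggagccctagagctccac
Cxcl2: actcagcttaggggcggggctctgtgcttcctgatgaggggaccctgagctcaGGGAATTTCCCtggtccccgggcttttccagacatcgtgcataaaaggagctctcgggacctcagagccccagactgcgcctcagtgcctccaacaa
Il6: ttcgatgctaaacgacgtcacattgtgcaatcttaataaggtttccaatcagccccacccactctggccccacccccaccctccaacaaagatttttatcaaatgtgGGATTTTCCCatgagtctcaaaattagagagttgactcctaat
The run GGGAATTTCCC, which matches on both strands, stood 71 to 61 bases before the start of Cxcl1 and 97 to 87 bases before that of Cxcl2. A kB core was found before 5 of 9 CXC chemokine genes with an entry (55.6%), 7 of 18 cytokine genes (38.9%) and 8 of 29 genes of the NF-kB list (27.6%), and before 13.6% of all tested genes with an entry (1267 of 9304). It also stood before 5 of 14 MHC class I genes (35.7%), 7 of 25 mitosis genes (28%) and 5 of 25 ribosomal protein genes (20%). The shares were 15% for homeostatic microglia genes (3 of 20) and 14.3% for CC chemokine genes (1 of 7). A raised share was thus not particular to the LPS-induced lists. In these windows the AP-1 core TGANTCA was held by 5.41% and the PU.1 core (GAGGAA followed by GT) by 3.05% of all tested genes with an entry, and by 10 (21.3%) and 4 (8.51%) of the 47 interferon-stimulated genes with one.

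**Figure D3:**
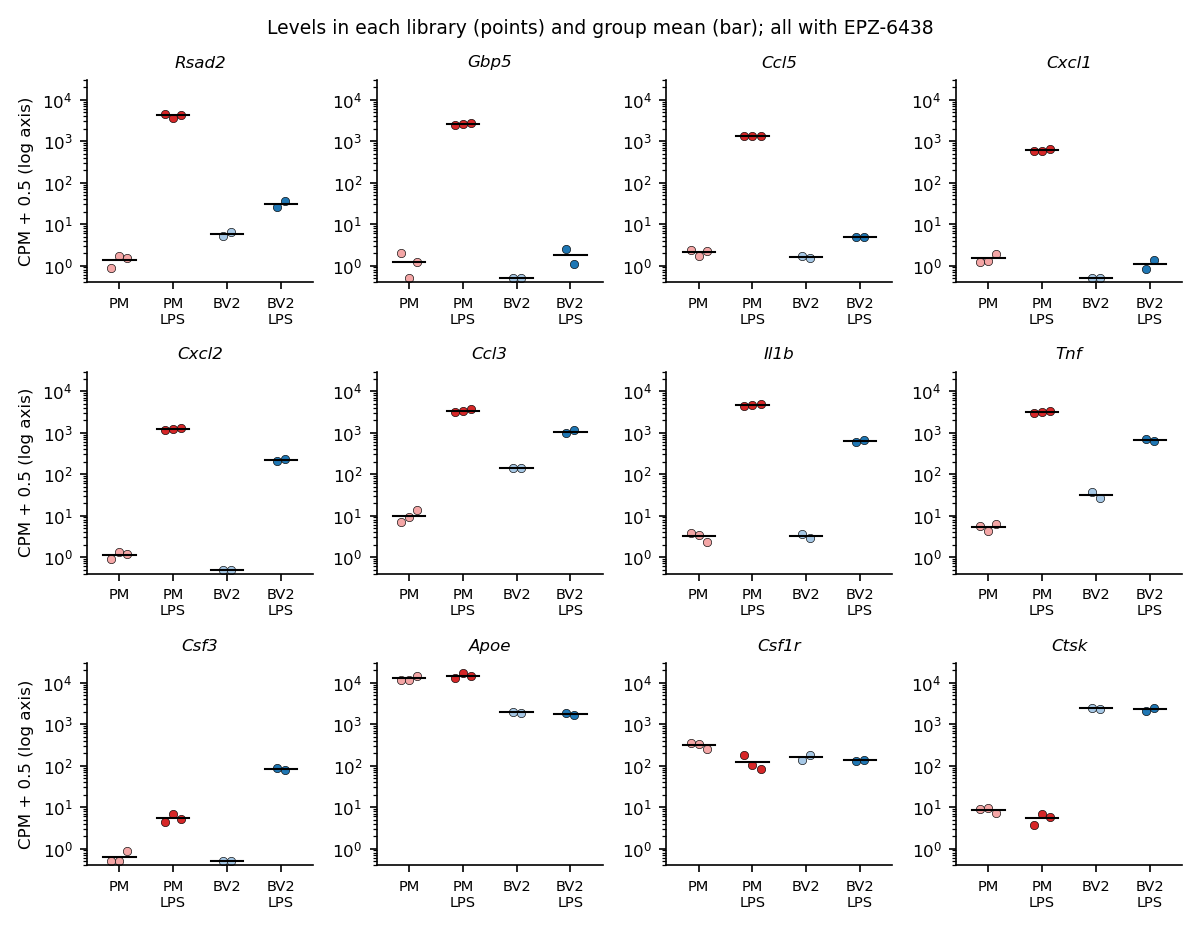
Level of 12 genes in each library as CPM + 0.5 on a log axis, for primary microglia (PM) and BV2 cells without and with LPS; points are libraries and bars group means, with 3 libraries per primary group and 2 per BV2 group. In BV2 with LPS, Gbp5 and Cxcl1 lie at 0.335 to 2.01 CPM and Ccl5 at 4.35 and 4.50 CPM, Cxcl2, Il1b and Tnf lie at 206 to 706 CPM there, and Csf3 and Ctsk are higher in BV2 than in primary cells.

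The genes of the LPS receptor were called higher in primary cells. Tlr4 (chromosome 4, 66827551 to 66846581) was at 31.6, 40.4 and 48.4 CPM in primary microglia and 16.1 and 22.5 CPM in BV2 (log2 difference 1.06 ± 0.26, adjusted p = 0.00151); with the length trend removed it was 0.31 with an adjusted p of 0.297, so the call ended. Cd14 was at 2690, 3300 and 3140 CPM against 1080 and 1030 CPM (1.53 ± 0.13, adjusted p = 3.83e-11). Ly96 was low in both cells (6.25, 5.09 and 7.35 against 1.34 and 3.09 CPM; 1.44 ± 0.43, adjusted p = 0.00397), and its call was lost without BV2 replicate 1 (1.00, adjusted p = 0.0741) and its value was 2.18 without BV2 replicate 2. Tlr2, which senses bacterial lipoproteins, was at 1510, 1750 and 1780 CPM against 586 and 537 CPM (1.58 ± 0.13).

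Of 23 tested Toll-like receptors and adaptors, 16 were called higher in primary cells and 2 in BV2, with a median of 1.06 (11 and 4, median 0.35, with the length trend removed). Tlr3, the endosomal sensor of double-stranded RNA, differed most (130, 116 and 134 against 1.34 and 1.40 CPM; 6.48 ± 0.28, adjusted p = 1.96e-17). Tlr13, a sensor of bacterial ribosomal RNA, was higher in BV2 (29.7, 36.3 and 37.3 against 98.4 and 110 CPM; -1.59 ± 0.14, adjusted p = 1.33e-10).

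NF-kB subunits and the genes that NF-kB induces to restrain itself were mostly higher in primary cells. Of 33 tested genes, 27 were called higher in primary microglia, 1 in BV2 cells and 5 not called, with a median log2 difference of 1.63 (20 and 3, median 0.92, with the length trend removed). Tnfaip3, the ubiquitin-editing inhibitor A20 (chromosome 10, 19000910 to 19015410), was at 991, 1010 and 1030 CPM against 180 and 140 CPM (2.66 ± 0.15, adjusted p = 5.32e-15), the largest of the list. Nfkbia, the inhibitor IkB-alpha, was at 480, 553 and 515 CPM against 192 and 170 CPM (1.51 ± 0.13, adjusted p = 4.07e-11), and Icam1, an adhesion ligand and NF-kB target, at 1040, 1200 and 1150 CPM against 407 and 314 CPM (1.65 ± 0.15). Nfkbid was the member called higher in BV2 (16.0, 11.8 and 13 against 19.8 and 19.1 CPM; -0.52 ± 0.24, adjusted p = 0.0485), a call that ended on leaving out any of 6 single libraries, among them each BV2 replicate with LPS (adjusted p = 0.13 and 0.105).

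Activated macrophages make nitric oxide, itaconate, prostaglandins and acute-phase proteins. Of 23 tested effector genes, 17 were called higher in primary cells and 5 in BV2 cells, with a median of 1.07. Irg1, the itaconate synthase now named Acod1 (chromosome 14, 103047012 to 103056573), was at 5350, 5600 and 5840 CPM against 666 and 622 CPM (log2 difference 3.12 ± 0.13, adjusted p = 1.01e-17). Nos2, inducible nitric oxide synthase, was at 199, 94.5 and 99.0 CPM against 5.36 and 5.34 CPM (4.59 ± 0.48, adjusted p = 4.53e-05), with primary replicate 1 about 2-fold above the others. Arg1, arginase, which uses the same substrate, was at 8.60, 16.2 and 9.61 CPM against 1.34 and 1.69 CPM (2.89 ± 0.46).

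Ptgs2, cyclooxygenase-2, differed little: it was at 798, 881 and 1050 CPM against 582 and 652 CPM (log2 difference 0.56 ± 0.13, adjusted p = 0.000504). Its direction turned with the length trend removed (-0.30, adjusted p = 0.0399), and with scaling by total gene counts it was 0.42 with an adjusted p of 0.257. Saa3, serum amyloid A3, was at 1340, 1870 and 1600 CPM against 519 and 634 CPM (1.48 ± 0.15), and Lcn2, the siderophore-binding lipocalin, at 68.4, 124 and 69.8 CPM against 46.5 and 52.8 CPM (0.82 ± 0.22, adjusted p = 0.00304; 0.0501 without BV2 replicate 1). Hp, haptoglobin, was higher in BV2 (7.03, 4.14 and 2.54 against 56.2 and 51.1 CPM; -3.60 ± 0.29, adjusted p = 1.82e-11), while Cybb, the catalytic subunit of the phagocyte oxidase, was higher in primary cells (2.06 ± 0.14).

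Genes of costimulation and of MHC class I were mostly higher in primary cells. Of 11 tested costimulatory and checkpoint genes, 11 were called higher in primary microglia, with a median of 1.96. Cd274, the checkpoint ligand PD-L1 (chromosome 19, 29362107 to 29388095), was at 1040, 1040 and 1190 CPM against 10.7 and 12.9 CPM (log2 difference 6.52 ± 0.18, adjusted p = 3.51e-21). Cd40 was at 875, 940 and 939 CPM against 139 and 136 CPM (2.74 ± 0.14, adjusted p = 4.30e-16), and Cd86 at 84.4, 89.1 and 104 CPM against 59.9 and 60.4 CPM (0.62 ± 0.15, adjusted p = 0.000694; 0.29 and 0.073 with the length trend removed, 0.48 and 0.163 with total gene counts). Of 17 tested genes of MHC class I and its peptide loading, 15 were higher in primary cells and 1 in BV2, with a median of 2.04. Tap1, which pumps peptides into the endoplasmic reticulum, differed most (346, 377 and 371 against 12.7 and 12.4 CPM; 4.86 ± 0.17, adjusted p = 4.45e-19), and the chaperone gene Calr was the exception (425, 522 and 491 against 704 and 659 CPM; -0.51 ± 0.13), with a call that ended under scaling by total gene counts (adjusted p = 0.0697). The list includes H2 genes, whose near-identical copies and strain differences make their counts uncertain.

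Most MHC class II genes did not pass the filter. Of 10 genes, 2 passed the filter and both were higher in BV2: Cd74, the invariant chain, at 9.77, 13 and 8.77 against 71.0 and 57.9 CPM (log2 difference -2.61 ± 0.20, adjusted p = 5.79e-12), and H2-DMb1 at 1.17, 1.91 and 1.41 against 5.36 and 5.06 CPM (-1.75 ± 0.50). The untested genes had few counts and mostly leaned the other way. H2-DMa had 22 counts over the primary libraries and 3 over BV2, H2-DMb2 10 and 0, and H2-Aa 8 and 0. Ciita, the class II transactivator, had 7 and 0, H2-Ob 4 and 0, and H2-Ab1 3 and 0. H2-Oa had 10 and 11, and H2-Eb1 had 0 in both. Of 15 tested inflammasome genes, 10 were higher in primary cells and 2 in BV2. Nlrp3, a sensor that assembles the inflammasome, was at 688, 472 and 473 CPM against 145 and 135 CPM (1.96 ± 0.16), and Pycard, its adaptor ASC, at 8.60, 11.1 and 10.2 CPM against 0 and 0, at least 21.8-fold higher.

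Microglia prune synapses and clear debris with complement and scavenger receptors. Of 19 tested complement genes, 15 were called higher in primary cells and 2 in BV2, with a median of 2.34. The first component was uneven: C1qa was at 332, 496 and 445 CPM against 34.2 and 28.7 CPM (log2 difference 3.76 ± 0.20), while C1qb was at 291, 379 and 345 CPM against 459 and 434 CPM (-0.40 ± 0.13, adjusted p = 0.00885; -0.16 and 0.197 with the length trend removed, -0.53 and 0.136 with total gene counts). C2, a convertase subunit, was at 66.4, 65.2 and 70.4 CPM against 0 and 0, at least 147-fold higher. C1ra was called higher in BV2 at low levels (5.86, 9.23 and 7.07 against 10.4 and 15.5 CPM; -0.80 ± 0.29, adjusted p = 0.0149), a call lost without BV2 replicate 2 (adjusted p = 0.258) and by DESeq2 (0.0835).

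Of 26 tested Fc receptor and phagocytosis genes, 23 were called higher in primary cells and 2 in BV2, with a median of 2.45. Axl, a receptor tyrosine kinase that binds dying cells through a bridging ligand (chromosome 7, 25756500 to 25788924), was at 223, 229 and 223 CPM in primary cells and 0 in both BV2 libraries, at least 491-fold higher. That ligand's gene, Gas6, was at 60.2, 81.5 and 69.6 CPM against 0 and 0, at least 154-fold higher, and its relative Mertk at 84.4, 50 and 48.1 against 1.67 and 1.12 CPM (5.41 ± 0.38). Marco, a scavenger receptor, was at 370, 470 and 362 CPM against 12.4 and 12.1 CPM (5.03 ± 0.21, adjusted p = 7.28e-17). The exceptions were Scarb1, a lipoprotein receptor (14.5, 25.5 and 16.1 against 152 and 121 CPM; -2.86 ± 0.19), and Fcgr3 (62.9, 60.1 and 78.3 against 206 and 185 CPM; -1.54 ± 0.14).

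Homeostatic genes mark microglia in the resting brain and many are lost in culture. Of 29 tested, 16 were called higher in primary cells, 4 in BV2 and 9 not called, with a median of 0.80. Cx3cr1, the fractalkine receptor (chromosome 9, 120048683 to 120068296), was at 132, 117 and 115 CPM against 5.36 and 3.37 CPM (log2 difference 4.81 ± 0.22, adjusted p = 5.39e-17). Sall1, a factor of microglial identity, was at 21.9, 8.59 and 12.7 CPM against 0 and 0, at least 31.4-fold higher.

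Other defining genes did not separate the cells that way. P2ry12 was near the floor in both (1.95, 2.55 and 1.70 against 2.01 and 1.12 CPM; log2 difference 0.42 ± 0.59, adjusted p = 0.533), Siglech had no count in any library with LPS, and Tmem119 was higher in BV2 (1.17, 2.55 and 1.98 against 11 and 9.83 CPM; -2.40 ± 0.36, adjusted p = 1.45e-06). Csf1r, the receptor microglia need to survive, was at 180, 102 and 80.6 CPM against 132 and 136 CPM and was not called (-0.16 ± 0.33, adjusted p = 0.686); without primary replicate 1 it was called higher in BV2 (-0.59, adjusted p = 0.00188), and with the length trend removed also (-1.09, adjusted p = 0.00382). Trem2, a lipid receptor, was at 191, 252 and 221 CPM against 278 and 241 CPM (-0.23 ± 0.13, adjusted p = 0.121), called at -0.33 without primary replicate 2 (adjusted p = 0.0405). Of the markers of the labelled cell type, Csf1r, Trem2 and C1qb were thus counted in every library, Sall1 had no count in BV2, and P2ry12, Siglech and Tmem119 were at or near the floor in primary cells.

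Of 28 tested transcription factors of the myeloid lineage, 21 were higher in primary cells and 2 in BV2, with a median of 1.85 (18 and 5, median 1.17, with the length trend removed). Spi1, which encodes PU.1, the central factor of the lineage, was at 251, 320 and 266 CPM against 369 and 300 CPM and was not called (log2 difference -0.26 ± 0.14, adjusted p = 0.0915); leaving out 1 of 3 single libraries gave a call toward BV2 (-0.37 without primary replicate 2), as did removing the length trend (-0.44, adjusted p = 0.00233). Irf8 was at 73.5, 75.1 and 90.8 CPM against 25.4 and 25.9 CPM (1.64 ± 0.16), and Batf2 at 43.4, 53.8 and 46.7 against 0.335 and 0 CPM (ratio 315, 56.3 to 12500).

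The program of disease-associated microglia, a lipid-handling state described around plaques, was split. Of 28 tested genes, 18 were higher in primary cells and 6 in BV2, with a median of 0.67. Apoe, the lipid carrier (chromosome 7, 19696244 to 19701310), was at 12900, 17300 and 14400 CPM against 1900 and 1680 CPM (log2 difference 3.05 ± 0.15, adjusted p = 6.60e-16). Lpl, lipoprotein lipase, was higher in BV2 (126, 125 and 112 against 484 and 516 CPM; -2.05 ± 0.12, adjusted p = 2.06e-14), as were the secreted phosphoprotein gene Spp1 (3000, 3550 and 3590 against 7180 and 10200 CPM; -1.37 ± 0.14), Fabp5 (-1.91 ± 0.13) and Lgals3 (-1.22 ± 0.12). The cathepsins were split too: among 31 lysosomal genes, 20 were higher in primary cells and 7 in BV2, with Ctss at 1180, 1230 and 1410 against 258 and 340 CPM (2.09 ± 0.14) and Ctsk, above, in the opposite direction.

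Genes of cell division were almost all higher in BV2. Of 30 mitosis genes tested, 29 were called higher in BV2 and 0 in primary microglia, with a median log2 difference of -5.09 (-5.25 with genes of 1 to 3 counts at their ratio). Aurka, a spindle kinase (chromosome 2, 172356190 to 172370886), was at 0.781, 2.86 and 1.98 CPM in primary cells and 200 and 170 CPM in BV2 (-6.54 ± 0.24, adjusted p = 6.26e-19). Ccna2, cyclin A2, was at 6.25, 3.82 and 6.79 CPM against 306 and 309 CPM (-5.76 ± 0.18), and Ube2c, a ubiquitin carrier of mitotic exit, at 1.95, 4.14 and 3.11 CPM against 200 and 214 CPM (-6.03 ± 0.20). In bulk RNA, fewer cells of a kind and less RNA per cell cannot be told apart.

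The mitosis gene not called was Mki67, which encodes the Ki-67 antigen (46.1, 18.8 and 24.0 against 37.2 and 57.9 CPM; log2 difference -0.72 ± 0.49, adjusted p = 0.221); it was called at -2.29 with the length trend removed (adjusted p = 8.24e-06) and at -0.97 with scaling by total gene counts (adjusted p = 0.00266). Of 40 genes of DNA replication and the G1/S step, 39 were higher in BV2 and 1 in primary cells, with a median of -3.56. Tk1, thymidine kinase, was at 1.56, 1.27 and 1.70 CPM against 101 and 83.2 CPM (-5.88 ± 0.24), and Pcna, the replication clamp, at 111, 122 and 129 CPM against 225 and 225 CPM (-0.90 ± 0.15). The exception was Ccnd2, cyclin D2 (63.7, 45.5 and 40.7 against 12.7 and 10.1 CPM; 2.12 ± 0.29).

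Cell cycle brakes and growth genes were mixed. Of 29 tested genes of MYC, RAS-RAF and the brakes, 12 were higher in primary cells, 10 in BV2 and 7 not called, with a median of 0.35. These counts are close to the shares of all tested genes (43.1% and 30.7%). With the length trend removed the counts were 8 and 12, with a median of -0.22. Cdkn1a, the inhibitor p21, was at 441, 445 and 449 CPM against 22.8 and 17.7 CPM (log2 difference 4.46 ± 0.17, adjusted p = 1.52e-18), and Cdkn2a at 0.391, 3.50 and 2.54 against 18.7 and 15.7 CPM (-2.91 ± 0.40). The cell's own Myc was higher in primary cells (15.2, 16.5 and 15.8 against 2.34 and 2.81 CPM; 2.60 ± 0.33, adjusted p = 7.57e-08), while Odc1, a classic target of MYC that makes polyamines, was at 87.1, 110 and 113 CPM against 1160 and 1140 CPM (-3.47 ± 0.13, adjusted p = 1.99e-18). Counts of Myc in a line with a viral copy depend on whether those reads align to the mouse gene, which was not tested.

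Genes of protein synthesis and respiration were higher in BV2 by about 2-fold to 3-fold. Of 35 tested ribosomal protein genes, 34 were called higher in BV2 and 1 in primary cells, with a median log2 difference of -1.46 (33 and 2, median -1.12, with the length trend removed). Rplp0, of the ribosomal stalk, was at 484, 615 and 583 CPM against 2330 and 2140 CPM (-1.99 ± 0.12). Ribosomal protein genes have many processed copies, so their counts are uncertain. Of 33 respiratory chain genes, 28 were higher in BV2 and 1 in primary cells, with a median of -1.13. The exception, Uqcrb, of complex III (log2 difference 0.45 ± 0.20, adjusted p = 0.0462), lost its call under most alternatives, for example at 0.10 without BV2 replicate 1 (adjusted p = 0.673).

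Glycolysis was split, with 9 of 24 tested genes higher in primary cells and 11 in BV2 and a median of -0.22 (5 and 13, -0.76, with the length trend removed). Ldha, lactate dehydrogenase A, was at 424, 601 and 547 CPM against 2450 and 2100 CPM (log2 difference -2.12 ± 0.13), and Pkm, pyruvate kinase, at 808, 1060 and 946 against 4460 and 3490 CPM (-2.08 ± 0.13). Ldhb, the other lactate dehydrogenase subunit, was at 38.3, 55.4 and 54.3 CPM in primary cells and 0 in both BV2 libraries, at least 108-fold higher. Phgdh, the first enzyme of serine synthesis, was higher in BV2, at 29.3, 43.6 and 39.3 CPM against 530 and 447 CPM (-3.70 ± 0.15).

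Of 22 tested cholesterol synthesis and uptake genes, 3 were higher in primary cells and 10 in BV2, with a median of -0.42 (2 and 18 with the length trend removed). Insig1, a sterol sensor, was at 144, 157 and 166 CPM against 289 and 271 CPM (log2 difference -0.85 ± 0.13). Of 16 tested targets of the liver X receptors, 13 were higher in primary cells and 2 in BV2 (9 and 5 with the length trend removed), among them Scd1, a fatty acid desaturase, at 72.7, 82.7 and 81.2 CPM against 0 and 0, at least 172-fold higher. Nr1h3, which encodes the receptor LXR-alpha, was higher in BV2 (10.2, 14.6 and 8.77 against 25.4 and 27 CPM; -1.23 ± 0.26). Of 23 NRF2 targets and metallothioneins, 16 were higher in primary cells and 5 in BV2, with Fth1, ferritin heavy chain, at 3930, 3590 and 3590 against 1400 and 1250 CPM (1.49 ± 0.12).

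All cells were held under an EZH2 inhibitor. EZH2 methylates lysine 27 as part of Polycomb repressive complex 2 (PRC2), with EED and SUZ12. Of 12 tested PRC2 genes, 3 were higher in primary cells and 7 in BV2, with a median of -0.75 (3 and 8, median -1.26, with the length trend removed). Ezh2, the drug's target (chromosome 6, 47530274 to 47595270), was at 17.6, 14.6 and 12.7 CPM against 42.2 and 45.2 CPM (log2 difference -1.56 ± 0.18, adjusted p = 2.16e-08), and Eed at 21.9, 27.4 and 32.8 against 41.9 and 61.3 CPM (-0.91 ± 0.19). Suz12 was at 54.7, 49.0 and 65.9 against 60.3 and 109 CPM (-0.58 ± 0.21, adjusted p = 0.0203), a call that rested on BV2 replicate 2 (-0.09 without it, adjusted p = 0.695) and ended also without primary replicate 2 (adjusted p = 0.07). Rbbp7, a histone-binding subunit that other complexes share, was at 64.9, 69.4 and 75.5 against 236 and 274 CPM (-1.86 ± 0.13), and Phf1 was higher in primary cells at low levels (1.99 ± 0.48).

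Of 19 PRC1 genes, 8 were higher in primary cells and 5 in BV2, close to the shares of all tested genes (3 and 10 with the length trend removed; 3 in BV2 without BV2 replicate 2), led by Pcgf5 (51.2, 50.3 and 54.0 against 4.35 and 9.27 CPM; log2 difference 2.89 ± 0.25, and 3.56 without BV2 replicate 2) and, toward BV2, Pcgf6 (6.25, 5.41 and 6.22 against 29.8 and 36.8 CPM; -2.48 ± 0.23). The demethylase gene Kdm6b, induced by LPS in macrophages, was at 24.2, 11.5 and 15.3 against 7.03 and 2.53 CPM (1.84 ± 0.37, adjusted p = 0.000121; 0.62 and 0.114 with the length trend removed). Its difference was 2.7 without BV2 replicate 1 and 1.24 without BV2 replicate 2. Kdm6a was not called (-0.18 ± 0.15, adjusted p = 0.265), and called at -1.30 with the trend removed. Of 35 developmental factors of a kind often held silent by Polycomb, 13 passed the filter and 11 were higher in primary cells, each with a mean under 10 CPM there; Sox9 was at 15.6, 6.68 and 7.63 CPM against 0 and 0, at least 21.8-fold higher. That gene is also active in astrocytes, and 12 of 13 tested astrocyte markers, Sox9 among them, were higher in the primary libraries. The part of astrocytes in the result was not tested.

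Matrix proteases and their inhibitors were almost all higher in primary cells: 16 of 18 tested, with 1 in BV2 and a median of 4.40 (4.00 with genes of 0 to 3 counts at their bound or ratio). Timp3, a protease inhibitor bound to the matrix, was at 222, 217 and 249 CPM against 0 and 0, at least 500-fold higher. Mmp12, macrophage elastase, was at 307, 335 and 348 CPM against 2.01 and 3.65 CPM (log2 difference 6.81 ± 0.22, adjusted p = 6.61e-20), and Mmp13, a collagenase, at 345, 350 and 472 against 6.70 and 9.55 CPM (5.56 ± 0.23). Of 17 tested integrin and adhesion genes, 12 were higher in primary cells and 3 in BV2, with a median of 1.19 (8 and 5, median 0.31, with the length trend removed). Cd44, a hyaluronan receptor, was at 1830, 1970 and 2190 against 503 and 464 CPM (2.05 ± 0.13), and Emb, embigin, led toward BV2 (4.69, 3.18 and 9.90 against 196 and 238 CPM; -5.14 ± 0.23, and -5.79 without primary replicate 3).

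G protein-coupled receptors were divided, with 14 of 29 tested higher in primary cells and 9 in BV2 (13 and 13 with the length trend removed). The main counts are close to the shares of all tested genes (43.1% and 30.7%). Fpr1, the formyl peptide receptor, was at 133, 148 and 156 CPM against 0.335 and 0.281 CPM (ratio 481), Gpr84 at 256, 245 and 239 against 46.2 and 34.0 CPM (log2 difference 2.63 ± 0.17) and Hcar2 at 293, 333 and 339 against 226 and 230 CPM (0.49 ± 0.12, adjusted p = 0.000856). Hcar2 was not called with scaling by total gene counts (0.35, adjusted p = 0.329). Among 24 immediate early genes, 16 were higher in primary cells and 2 in BV2 (1 in BV2 without BV2 replicate 1; 13 and 5 with the length trend removed), with Atf3, a repressor induced by LPS, at 269, 278 and 276 against 76.7 and 65.5 CPM (1.95 ± 0.15) and Ier2 toward BV2 (-0.77 ± 0.16). Of 24 genes of the unfolded protein and integrated stress responses, 7 were higher in primary cells and 12 in BV2 (4 in primary cells without BV2 replicate 2). Of 11 tested heat shock genes, 3 were higher in primary cells and 5 in BV2 (3 and 8 with the length trend removed). Hspa8, a constitutive chaperone, was at 477, 513 and 517 against 2640 and 2660 CPM (-2.40 ± 0.12). Hspa1a and Hspa1b did not pass the filter, with 21 and 23 counts over the primary libraries with LPS and 0 and 3 over BV2. With no low-count filter, 5 heat shock genes were called higher in primary cells.

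Markers of other brain cells were mostly higher in the primary cultures than in BV2. The 16 astrocyte markers summed to 1130 to 1920 CPM in the primary libraries with LPS and 64.6 to 67.2 CPM in BV2, where 14 of 16 were at 0. Of the 13 tested, 12 were called higher in primary cells and 1, Aldoc, in BV2. Aldoc was at 19.1, 27.7 and 22.6 against 41.5 and 37.9 CPM (log2 difference -0.77 ± 0.20, adjusted p = 0.00102). For 12 fibroblast and meningeal markers the sums were 338 to 608 CPM and 0, with all 12 at 0 in BV2. For 14 oligodendrocyte lineage markers they were 206 to 256 and 25 to 25.8 CPM (10 at 0), for 13 neuron markers 136 to 156 and 3.01 to 3.37 CPM (12 at 0), and for 6 ependymal markers 35.2 to 77.3 and 0 to 0.843 CPM (4 at 0). The 13 endothelial and mural markers summed to 122 to 134 and 98.9 to 111 CPM, from members that differed in opposite directions (5 of the 7 tested were higher in primary cells, among them Acta2, and 2 in BV2, among them Kdr), while 13 neutrophil, monocyte and border macrophage markers summed to 219 to 232 and 93.7 to 106 CPM, and lymphocyte markers to 4.69 to 6.79 CPM and 0. The homeostatic list summed to 12900 to 14800 CPM in primary cells and 6520 to 7080 CPM in BV2. Most of that sum came from the cathepsin gene Ctsd, at 7770, 9030 and 8420 CPM in primary cells and 3930 and 3390 CPM in BV2. The sum therefore does not gauge members such as P2ry12, Siglech and Tmem119, which were at or near the floor in primary cells.

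Aqp4, the astrocytic water channel, was at 217, 322 and 342 CPM in primary cells and 0 in both BV2 libraries, and Olig1, an oligodendrocyte factor, at 39.1, 68.7 and 59.9 CPM against 0 and 0. Fn1, fibronectin, was at 406, 132 and 115 CPM against 0 and 0, with primary replicate 1 about 3-fold above the others, and Col1a1, a fibrillar collagen, at 21.5, 2.55 and 7.35 CPM against 0 and 0. Col1a1 was not called (adjusted p = 0.0631) and was called on leaving out primary replicate 1 or 2 (adjusted p = 0.0459 and 0.0227), by DESeq2 (7.03e-05) and with total gene counts (2.06e-13). The part of these other cells in the genes at 0 in BV2, such as Timp3, Ch25h or Gas6, was not tested. Kdr, a receptor of the endothelial list, was higher in BV2 (1.95, 3.18 and 2.54 against 96.8 and 86.0 CPM; log2 difference -5.11 ± 0.23). The Y-linked genes Ddx3y, Uty, Eif2s3y and Kdm5d had no count in BV2 with LPS, and Ddx3y was at 27.7, 29.9 and 40.7 CPM in the pooled primary cells. Xist, of the inactive X, was at 512, 357 and 469 CPM against 135 and 169 CPM (1.55 ± 0.17); its direction turned with the length trend removed (-0.29, adjusted p = 0.0605).

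The differences with LPS were set beside those of the same cells without it, from the same fit. Without LPS, 8611 genes (74.1%) were called, 4830 (41.5%) higher in primary cells and 3781 (32.5%) in BV2. Of the genes called with LPS, 7145 (83.3%) were called in the same direction without it, 233 in the opposite direction and 1198 not at all. The change of the difference was called for 1418 genes (12.2%), 1006 of them (8.65%) toward primary cells and 412 (3.54%) toward BV2. The comparisons with and without LPS share no library, but share the fit's estimate of the spread.

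Most interferon-stimulated genes changed toward primary cells. Without LPS, 20 of the 60 were higher in primary cells and 16 in BV2, with a median log2 difference of 0.40; the change toward primary cells was called for 44 and toward BV2 for 0. Rsad2 was at a mean of 0.884 CPM in primary cells and 5.30 CPM in BV2 without LPS, that is higher in BV2 (-2.53, adjusted p = 2.07e-05), so the difference changed by 9.65 ± 0.51 (adjusted p = 6.22e-14). Irf7 (1.54 and 8.14 CPM without LPS) changed by 7.59 ± 0.42, and Isg15 (1.19 and 2.41 CPM) by 6.94 ± 0.69. Mitosis genes showed little change: a change was called toward BV2 for 1 and toward primary cells for 0 of 30.

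Ccl2, Ccl3, Ccl4, Ccl7, Ccl9 and Ccl12 were called higher in BV2 without LPS and higher in primary cells with it. Without LPS, 7 of the 11 tested were higher in BV2 and 1 in primary cells, with a median of -2.51; with LPS the median was 1.66, and the change was called toward primary cells for 7 and toward BV2 for 0. Ccl3 had means of 9.42 CPM in primary cells and 141 CPM in BV2 without LPS (log2 difference -3.89), so the difference changed by 5.55 ± 0.24 (adjusted p = 2.91e-15), and Ccl4 (1.73 and 37.8 CPM) changed by 6.02 ± 0.28. Tnf (4.84 and 31.2 CPM without LPS) changed by 4.91 ± 0.26, and Cd40 (0.619 and 10.8 CPM) by 6.77 ± 0.38. Il1b, at 2.66 and 2.71 CPM, did not differ beyond its error without LPS (-0.04, adjusted p = 0.931) and changed by 2.92 ± 0.45. MHC class I genes changed toward primary cells in 16 of 17 cases and NF-kB genes in 15 of 33.

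**Figure D4:**
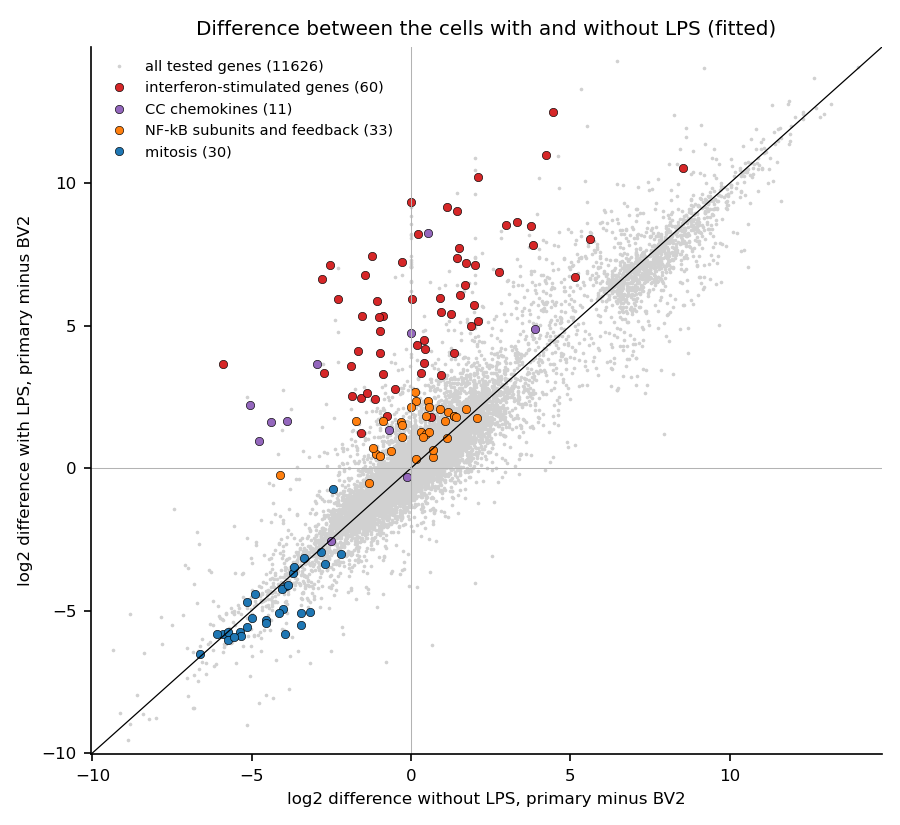
Fitted log2 difference between primary microglia and BV2 cells without LPS (horizontal) and with LPS (vertical) for each tested gene; the diagonal marks an equal difference in both conditions. The interferon-stimulated genes and most CC chemokines lie above the diagonal, the NF-kB genes nearer to it and the mitosis genes along it; values of genes with 0 counts in a group depend on the prior count of the fit.

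Some differences moved toward BV2. Saa3 and Ptgs2 were higher in primary cells with LPS by less than without it: the change was -1.27 ± 0.32 (adjusted p = 0.00672) for Saa3 and -1.89 ± 0.23 (adjusted p = 6.51e-07) for Ptgs2, whose means without LPS were 69.0 and 12.6 CPM. Cebpa, a myeloid factor, was at a mean of 440 CPM in primary cells and 41.9 CPM in BV2 without LPS and at 25.4, 36.6 and 26.9 against 36.5 and 32.3 CPM with it (change -3.60 ± 0.23, adjusted p = 2.74e-12). With LPS its difference was not called (-0.21, adjusted p = 0.274), and was called with the length trend removed (-0.57, adjusted p = 0.00313). Tlr13 changed by -1.27 ± 0.20, in the same direction. The change of Cx3cr1 was not called (-0.67 ± 0.40, adjusted p = 0.387).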

How the data were processed

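RNA was sequenced from mouse cells after removal of ribosomal RNA with a directional kit, as read pairs of 101 cycles, per the labels' protocols. CASAVA 1.8.2, Trimmomatic 0.33, STAR 2.5.1 and DESeq2 on mm10 are named in the submitters' processing notes; no source used here names the gene annotation. The authors deposited raw counts, 1 whole number of reads for each gene symbol and strand. Reverse-strand counts were taken, since the forward strand held 0.946% to 2.21% of stranded gene reads in the libraries with LPS. Entries that name no gene (70.4% to 79.5% of reads, of which multimapping reads were 8.98% to 11.8% of all) were left out.

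Counts of all 10 libraries in 4 groups were fitted with edgeR 4.0.16 in R 4.3.3 (TMM scaling, filterByExpr with a minimum count of 10 and total of 15, robust quasi-likelihood F test, Benjamini-Hochberg adjustment, called at an adjusted p under 0.05). The fit had 6 residual degrees of freedom and a biological coefficient of variation of 12.6%. It was also run on simulated counts in which few genes changed, equally up and down, between otherwise equal groups. Most tested genes differed in the real data, so that run does not gauge the errors of the fit here. CPM were computed with the TMM factors. Where a group had no count the fold is a bound against 3 counts over the group, and with 1 to 3 counts it is a ratio of means with its 95% counting interval; both cover counting error only. No list was tested as a set: a list is given by its counts and median.

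The 47 gene lists and the genes on them were chosen with earlier results of these data known, while the libraries were chosen by title. Genes named are the 15 largest differences each way among called genes with at least 20 CPM, the largest called difference each way and the 2 highest members of each list, a fixed panel, and the 5 largest changes of the difference each way; single further list members were named after their values were seen. Locations and promoters are from RefSeq GRCm38.p6; of 24411 symbols, 23194 matched directly and 1096 by a synonym. Alternatives were RLE, upper quartile and total count scaling, structural RNA left out, DESeq2 1.42.0, other filters, a 1.5-fold null, only the libraries with LPS, a replicate block, unstranded counts, each library left out and, chosen after seeing the data, removal of the trend with transcript length. Results for some genes are not reported here.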

Additional observations from a re-analysis of the deposited data

Results flagged for a closer look

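For 10 genes, the 5 largest called changes each way among genes with a mean of at least 20 CPM in a group, the difference between the cells changed with LPS by a test of the change itself (edgeR's quasi-likelihood test on all 10 libraries). Larger fitted changes that were not called, such as that of Csf3 (-6.04, adjusted p = 0.126), are left out of this count. Toward primary microglia these were Rsad2, whose log2 difference changed by 9.65 (adjusted p = 6.22e-14), Oasl1 by 9.55 (5.47e-14), Ifit1 by 9.44 (6.65e-08), Serpina3g by 9.31 (0.0166) and Slfn4 by 8.65 (0.000194). Oasl1 went from means of 0.136 CPM in primary cells and 9.90 CPM in BV2 without LPS to 434, 482 and 460 against 39.2 and 33.7 CPM with it. The changes of Ifit1 and Oasl1 were 11.44 and 11.55 without PM_EPZ replicate 2, and 8.83 and 8.94 without PM_EPZ replicate 3. That of Slfn4 was 10.89 without BV2_EPZ_LPS replicate 1, 7.69 without BV2_EPZ_LPS replicate 2 and 11.39 without PM_EPZ replicate 3. Serpina3g had no count in primary cells without LPS, so its change depends on the prior count of the fit, and without BV2_EPZ replicate 2 its adjusted p was 1.

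Toward BV2 they were Marco, changing by -4.64 (adjusted p = 0.0156), Arhgap19 by -4.35 (1.53e-12), Lcn2 by -4.34 (0.00437), Il16 by -3.81 (2.35e-06) and Cebpa by -3.60 (2.74e-12). Marco had no count in BV2 without LPS, and its call was lost without BV2_EPZ replicate 1 or 2 (adjusted p = 0.133 and 0.113). The Lcn2 call was lost without BV2_EPZ replicate 1 (adjusted p = 0.0597), with values of -3.45 without it and -6.61 without BV2_EPZ replicate 2. Arhgap19 went from means of 94.0 and 82.4 CPM without LPS to 2.34, 4.14 and 2.83 CPM in primary cells and 53.9 and 59.3 CPM in BV2.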

How the results depend on the processing

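The counts called with LPS (5012 higher in primary cells, 3564 in BV2) stayed within 1.5 times under each alternative: 4765 and 3180 with DESeq2, 5990 and 3716 with no low-count filter, 4486 and 3462 with only the 5 libraries with LPS, and 4783 to 5231 and 3278 to 3687 on leaving out each library. Scaling by total gene counts shifted the median of all genes by -0.16 and gave 54.4% of calls higher in primary cells. The counts of changed differences (1006 toward primary cells, 412 toward BV2) moved more: 668 toward BV2 with upper quartile scaling, 551 and 150 with total gene counts, 540 and 181 against a 1.5-fold null. On leaving out each library they ran from 733 to 1050 and from 271 to 873; the extremes toward BV2 were 873 without PM_EPZ_LPS replicate 1, 271 without BV2_EPZ replicate 1 and 272 without BV2_EPZ replicate 2. The causes were not tested. With a replicate block the counts were 5006 and 3502 with LPS and 1014 and 420 for the change. Of the named genes, Nfkbid and Uqcrb lost their calls with that block. Same-numbered primary and BV2 libraries were not treated as pairs, since the replicate numbers are not stated to mark a shared batch. With LPS their deviations from the group means correlated at 0.032 and -0.085. The deviations of 2 BV2 libraries are mirror images of each other, so these values can neither show nor exclude pairing. Removing the length trend reversed Ptgs2 (-0.30) and Xist (-0.29). A count of 0 in a BV2 library allows up to 1.00 CPM, which limits statements of absence.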
